A study of Drosophila melanogaster with 4 samples.

Results

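The genes tll, hkb, hb, Kr, kni, knrl, gt, oc, ems and btd encode the zygotic gap, head gap and terminal transcription factors of the Drosophila embryo. They were taken by their symbols in the platform's probe annotation, from probes that carry 1 gene symbol. All 10 genes were measured, by 21 of 17329 such probes (3 for gt and 2 for each of the others), out of 10805 genes in all. The RNA came from pole cells, the germ-line precursors that form at the posterior end of the embryo. They were sorted by FACS on the germ-line marker EGFP-Vas from embryos of stages 8 to 14. In the driven groups, mothers homozygous for the germ-line driver nosGal4:VP16 were crossed to fathers with EGFP-Vas and a UAS transgene of tao-1, either UAS-tao-1(D168A) or UAS-tao-1(D168D). In the non-driven groups yw mothers were crossed to the same fathers, so these cells carried the same transgene and marker without the driver. The labels call D168A dominant negative. D168D stands under a series title that speaks of wild type, in samples named gof whose descriptions speak of overexpression. Driven cells thus also differed from non-driven cells in their mothers' genotype, and this and the expressed transgene cannot be told apart.

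Each of the 4 arrays compared driven with non-driven cells of 1 form in 2 colours. In each form the driven RNA was labelled with Cy3 on 1 array and with Cy5 on the other, and the arrays are named the Cy3 and the Cy5 array after the dye of the driven RNA. The arrays of a form were treated as a dye swap of the same RNA and as 1 replicate. All values are log2 ratios of driven over non-driven cells, and ± gives how far the 2 arrays of a form lie on either side of their mean. It holds the error of hybridisation and dye and no biological spread, and precision is limited by how many arrays there are. Over all 10805 genes the 2 arrays of a form hardly correlated (Pearson r = -0.10 with D168A and 0.01 with D168D). Between the forms r was 0.36 for the Cy3 arrays and 0.15 for the Cy5 arrays. Across the dyes it was 0.30 (D168A Cy5, D168D Cy3) and -0.15 (D168A Cy3, D168D Cy5). A form mean thus averages arrays that did not agree over the genes as a whole. Tao itself was at 2.91 ± 0.07 with D168A and 3.01 ± 0.02 with D168D. As these high values also helped to read the ratios as driven over non-driven, they are no independent check of that direction. Being alike in both forms, they do not check which arrays carried which form either. Since a ratio gives no level, it was not known whether a gene was expressed in these cells at all, and the sort could not be checked. The marker genes vas and pgc were not analysed here, as neither had a probe with a single symbol.

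In the early embryo, maternal gradients of Bicoid, Hunchback and Caudal protein set up the gap genes, which repress each other and divide the trunk and head into broad domains. At both ends, signalling through the receptor kinase Torso lifts repression by Capicua and Groucho and so turns on tll and hkb. Pole cells arise in the same posterior region but hold back zygotic transcription at first, under the germ-plasm products of pgc, nanos and gcl. Later in embryogenesis several of these genes are used again outside the germ line, hb and Kr in neuroblasts, tll, oc, ems and btd in the developing brain, and kni in tracheal branches.

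Of the 10 genes, tll differed most from equal levels in the mean of both forms, followed by hkb and gt, and the highest form mean among the other 7 was 0.35, that of kni with D168D. A call in a form, as higher or lower, was made where the mean over a gene's probes reached 2-fold, a log2 ratio of 1, in the same direction on both arrays. With D168D, tll was called higher, and no other of the 10 genes was called in either direction. In the same comparison, 0.157% of all genes were called higher and 0.00925% lower. With D168A, 0 of the 10 were called in either direction, against 0.148% of all genes called higher and 0.00925% lower. At 1.5-fold on both arrays, tll and hkb passed with D168A (0.5% of all genes did), and tll and gt passed with D168D (0.768% of all genes). A count of 1 or 2 among 10 genes is a larger share than these, but the genes were chosen with such results known, and with 1 replicate in each form no test was possible within a form.

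**Figure D1:**
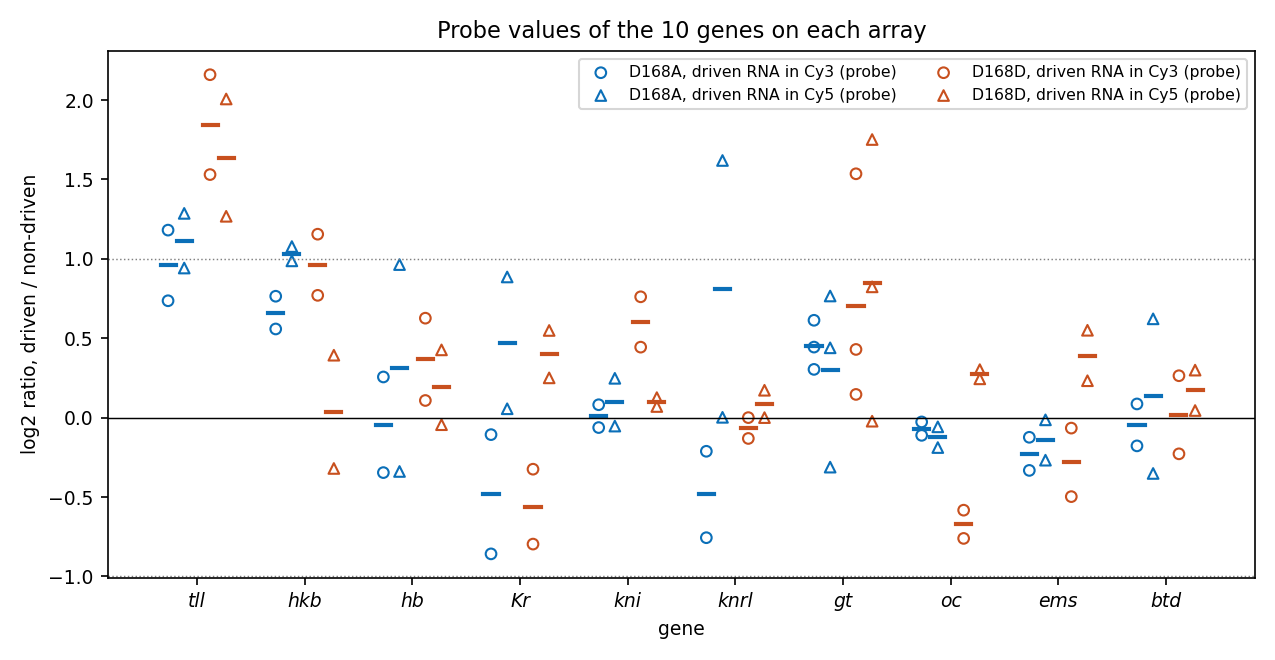
Log2 ratio of driven over non-driven cells for each probe of the 10 genes, with the 2 arrays of D168A (blue) left of those of D168D (orange). Circles stand for driven RNA in Cy3, triangles for Cy5, bars are the means over probes, and dotted lines mark 2-fold. All 8 values of tll lie above 0, between 0.74 and 2.16, whereas the values of Kr lie below 0 on both Cy3 arrays and above 0 on both Cy5 arrays.

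The terminal gene tll (tailless, NCBI Gene 43656) encodes a nuclear receptor that represses trunk genes and directs formation of the unsegmented ends of the embryo. Its gene mean was 0.96 on the Cy3 and 1.11 on the Cy5 array of D168A. With D168D it was 1.85 on the Cy3 and 1.64 on the Cy5 array. As gene means, all 4 arrays were thus above 0, and both D168D arrays lay above both D168A arrays. The form means were 1.04 ± 0.08 with D168A (2.05-fold) and 1.74 ± 0.10 with D168D (3.34-fold), so the gene missed the 2-fold rule with D168A only through the Cy3 array. Over all genes, tll had the 27th highest form mean with D168A and the 5th highest with D168D.

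Both probes of tll were above 0 on all 4 arrays, but they differed in how the forms compared within a dye orientation. The first gave 0.74 (Cy3) and 1.29 (Cy5) in the D168A pair, and 2.16 (Cy3) and 1.27 (Cy5) in the D168D pair. For the second these values were 1.18 (Cy3) and 0.94 (Cy5) in D168A, then 1.53 (Cy3) and 2.01 (Cy5) in D168D. On the D168D arrays every single probe value exceeded 2-fold, and in the form means the probes lay 0.05 apart in either form. Within a form, however, the probes moved in opposite directions with the dye, so the small ± of the gene means comes from cancelling. By probe it was ± 0.28 with D168A and ± 0.45 with D168D for the first, and ± 0.12 and ± 0.24 for the second. On the Cy5 arrays the first probe gave nearly the same ratio in both forms, whereas the second was higher with D168D in both orientations. The median range between probes of a gene, over the 5531 genes with more than 1 probe, was 0.14 with D168A and 0.23 with D168D.

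The second terminal gene, hkb (huckebein, NCBI Gene 40549), encodes a zinc finger protein that helps to specify the gut primordia at the ends of the embryo. It was at 0.66 on the Cy3 and 1.03 on the Cy5 array of D168A, a mean of 0.85 ± 0.19 (1.80-fold). With D168D it was at 0.96 on the Cy3 and 0.04 on the Cy5 array, a mean of 0.50 ± 0.46 (1.41-fold). Of its 8 probe values 7 were above 0, and the exception, -0.32, was 1 probe on the Cy5 array of D168D. Only 6.45% of all genes had arrays as far apart as hkb with D168D, so its mean in that form is less certain than with D168A.

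Among the trunk gap genes, gt (giant, NCBI Gene 31227), a bZIP repressor, had the highest form means. It was at 0.45 on the Cy3 and 0.30 on the Cy5 array of D168A, and at 0.70 and 0.85 on those of D168D. On the Cy5 array of D168A alone, knrl (0.81), Kr (0.47) and hb (0.31) lay above it. The arrays of a form lay close together, at 0.38 ± 0.08 with D168A and 0.78 ± 0.07 with D168D, and all 4 were above 0. Its 3 probes did not agree in size. With D168D they averaged 1.64, 0.63 and 0.06, a range of 1.58, and with D168A they averaged 0.69, 0.44 and -0.004. With D168D 1 probe alone exceeded 2-fold, and the median over probes was 0.63. Another 2 probes are annotated to both gt and CG12496 and were left out by the rule. When they were averaged in, which was chosen after seeing the data, gt was at 0.17 with D168A and 0.39 with D168D.

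The zinc finger gene hb (hunchback), which acts in the anterior of the embryo, was at -0.05 and 0.31 on the Cy3 and Cy5 arrays of D168A, and at 0.37 and 0.19 on those of D168D. Its means were 0.13 ± 0.18 with D168A and 0.28 ± 0.09 with D168D. With D168D 1 of its probes averaged 0.53 and the other 0.03. The abdominal gap gene kni (knirps), which encodes a receptor-like factor with a nuclear receptor zinc finger, was at 0.01 (Cy3) and 0.10 (Cy5) in the D168A pair, and at 0.60 (Cy3) and 0.10 (Cy5) in the D168D pair. All 4 gene values of kni were above 0, but 3 of them did not exceed 0.10.

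The relative of kni, knrl (knirps-like), lies close to it on the chromosome, with CG13251 the only protein-coding gene between them in the Release 6 plus ISO1 MT gene table. It was at -0.48 and 0.81 on the Cy3 and Cy5 arrays of D168A, and at -0.07 and 0.09 on those of D168D. One of its probes gave -0.76 and 1.62 with D168A and is listed at 0 on both D168D arrays. Without that probe, an alternative chosen after seeing the data, the mean of knrl with D168A was -0.11, against 0.16 with it, so the sign in that form rests on a probe whose arrays disagree. These 2 zeros were the only ones among 84 probe values of the 10 genes.

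Kr (Krüppel), the zinc finger gene of the central domain, changed sign with the dye. It was at -0.48 and 0.47 on the Cy3 and Cy5 arrays of D168A, and at -0.56 and 0.40 on those of D168D. The 2 orientations nearly cancelled, to -0.01 ± 0.48 with D168A and -0.08 ± 0.48 with D168D. Distances this large between arrays were found for 4.97% of all genes with D168A and 5.66% with D168D. The pattern of Kr, below 0 on the Cy3 array and above 0 on the Cy5 array of both forms, was shared by knrl among the 10 genes and by 9.05% of all genes.

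**Figure D2:**
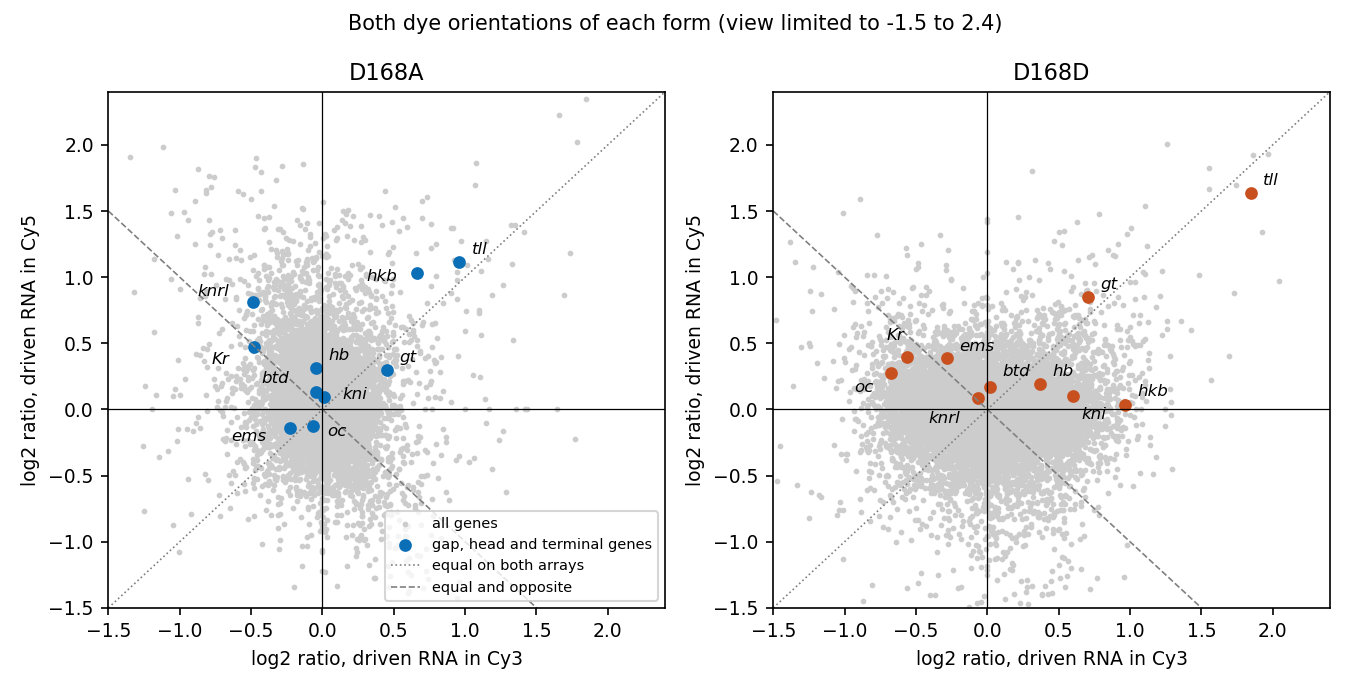
Log2 ratio on the Cy5 array (vertical) against the Cy3 array (horizontal) for D168A (left) and D168D (right), with all genes in grey within the limits shown and the 10 genes in colour. Points on the dotted line are equal on both arrays and points on the dashed line are equal and opposite; tll (0.96 and 1.11 with D168A, 1.85 and 1.64 with D168D) lies near the dotted line and Kr near the dashed line in both forms.

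The form means of the 3 head gap genes lay between -0.20 and 0.09, and for oc and ems with D168D such a mean averages arrays of opposite sign. The homeodomain gene oc (ocelliless, also called orthodenticle) was at -0.07 and -0.12 on the Cy3 and Cy5 arrays of D168A, and at -0.67 and 0.27 on those of D168D. The homeodomain gene ems (empty spiracles) was at -0.23 (Cy3) and -0.14 (Cy5) in the D168A pair, and at -0.28 (Cy3) and 0.39 (Cy5) in the D168D pair. Both thus lay below 0 on both D168A arrays, as did 21.5% of all genes, and had opposite signs on the D168D arrays. Arrays as far apart as those of oc with D168D were found for 5.94% of all genes, and as those of ems for 16.5%. The Sp-family zinc finger gene btd (buttonhead) was at -0.05 (Cy3) and 0.14 (Cy5) in the D168A pair, and at 0.02 (Cy3) and 0.17 (Cy5) in the D168D pair. Its means were 0.04 ± 0.09 with D168A and 0.09 ± 0.08 with D168D.

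By position, the terminal pair had the highest medians, 0.94 with D168A and 1.12 with D168D. With 2 genes such a median is only their midpoint. With D168D it lay between tll at 1.74 and hkb at 0.50 ± 0.46, and of the 2 only tll was called. The medians of the 5 trunk gap genes were 0.13 and 0.28, and those of the 3 head gap genes -0.10 and 0.05. Sorted by protein class, which the choice of genes did not use, the 3 genes with a nuclear receptor zinc finger (tll, kni and knrl) ranged from 0.05 to 1.04 with D168A and from 0.01 to 1.74 with D168D. The 4 C2H2 zinc finger genes (hkb, hb, Kr and btd) ranged from -0.01 to 0.85 and from -0.08 to 0.50. Both classes held genes near 0 beside a higher one.

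Over the 10 genes, the median was 0.09 with D168A and 0.19 with D168D, where all genes had medians of 0.01 and -0.01. The D168A median changed sign with the dye, at -0.05 on the Cy3 and 0.31 on the Cy5 array, and the D168D median was 0.19 and 0.23. With D168A 7 of the 10 were above 0 (53.2% of all genes), and with D168D 8 of 10 (47.0% of all genes). The genes tll, hkb, kni and gt were above 0 on both D168A arrays, against 24.4% of all genes. With D168D these 4 with hb and btd were above 0 on both arrays, against 23.3% of all genes. None of the 10 was below 0 on both D168D arrays (24.1% of all genes). The same 4 genes, tll, hkb, kni and gt, were above 0 on all 4 arrays, a pattern of 9.33% of all genes. On single arrays 4 of the 10 were above 0 on the Cy3 and 8 on the Cy5 array of D168A, and 6 and 10 on those of D168D. Over all genes these shares were 50.2% and 52.4% for D168A, and 49.4% and 49.1% for D168D.

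The comparison common to both forms asked which genes differed from equal levels in the same direction in both pairs of driven and non-driven cells. In limma over the 2 form means, with Benjamini-Hochberg adjustment over all genes, 0 of the 10 reached an adjusted p under 0.05, as 0.0555% of all genes did. The nearest was tll, at 1.39 (SE 0.18, adjusted p = 0.194) and higher on 4 of 4 arrays. It was followed by hkb at 0.67 (SE 0.11, adjusted p = 0.307) and gt at 0.58 (SE 0.12, adjusted p = 0.334), each also higher on 4 of 4 arrays. For the other 7 genes the common mean lay between -0.15 (oc) and 0.21 (hb). At an unadjusted p under 0.05, tll, hkb and gt were higher and none of the 10 was lower, against 8.0% and 5.16% of all genes. Over the alternatives tried, the adjusted p of tll ranged from 0.0684, without genes listed at 0, to 0.641, on the Cy5 arrays alone. These p-values rest on the spread between 2 pairs of samples, which nothing in the labels says came from more than 1 collection each. With 1 residual degree of freedom per gene, limma moderated this spread over all genes. An SE is thus not that of a gene's own 2 form means alone. As 1 pair carried D168A and the other D168D, that spread also holds any difference between the forms.

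**Figure D3:**
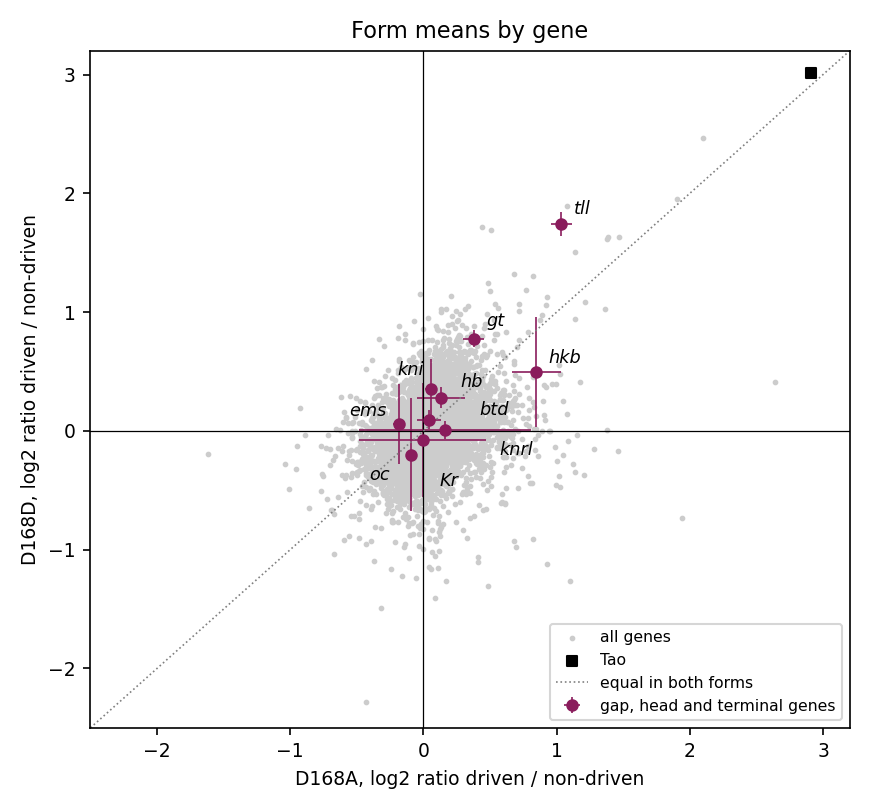
Form mean of each gene with D168A (horizontal) and D168D (vertical), as log2 ratios of driven over non-driven cells, with all genes in grey and Tao as a black square. Bars on the 10 genes span the 2 arrays of a form. The point of tll (1.04 and 1.74) lies above the line of equality and outside the bulk of the grey points. Other genes lie near it, such as Drep1 (1.07 and 1.89) and Sod3 (1.38 and 1.61). That of hkb (0.85 and 0.50) lies below that line with a wide vertical bar. The point of gt (0.38 and 0.78) has the 73rd highest form mean with D168D over all genes. The other 7 overlap the bulk of the grey points.

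Set against each other, D168A and D168D gave no difference of 2-fold in both dye orientations for any of the 10 genes. By that rule 0.13% of all genes were higher with D168A and 0.00925% lower. The ratio of tll differed, as D168A minus D168D, by -0.89 on the Cy3 and -0.52 on the Cy5 arrays, a mean of -0.70 ± 0.18. Its first probe differed by -1.42 (Cy3) and 0.02 (Cy5), and its second by -0.35 and -1.06, so 1 of the 2 probes showed almost no difference on the Cy5 arrays. That of gt differed by -0.25 on the Cy3 and -0.55 on the Cy5 arrays, a mean of -0.40 ± 0.15, which shrinks to -0.18 with the median over probes. The genes tll, kni, gt and btd were lower with D168A in both orientations, as were 17.2% of all genes, although the difference of kni on the Cy5 arrays was only -0.00084. For hkb the orientations opposed each other, at -0.30 and 0.996, so its higher mean with D168A (0.35 ± 0.65) has no settled direction. With 1 replicate in each form, none of these differences could be tested.

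By Euclidean distance of the log2 ratios over the 4 arrays, the genes most like tll were Drep1 (0.51), Sod3 (0.57), SNCF (0.74), Pmvk (0.82) and CG30440 (0.84). Drep1, of the DNA fragmentation factor family, was at 1.07 ± 0.37 with D168A and 1.89 ± 0.03 with D168D, and Sod3, an extracellular superoxide dismutase, at 1.38 ± 0.02 and 1.61 ± 0.06. Of the other 9 genes described here, gt (1.69) and hkb (1.85) were nearest to tll, in places 48 and 89 of 10804, and oc (3.28) was farthest, in place 9302.

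Genes that act above or beside the gap genes were read from further lists. Of the Torso pathway list, 9 of 14 genes were measured, and 0 were called in either form or in limma. Not measured were csw, Ras85D, Raf, rl and cic, the gene of Capicua. Of the measured genes, tor and trk had 1 probe each. The median of the list was -0.01 with D168A and 0.21 with D168D, with 3 and 6 of the 9 above 0, against the 53.2% and 47.0% of all genes given above. The receptor gene tor, which like gro was named after its values were seen, was at -0.09 ± 0.10 with D168A and 0.26 ± 0.21 with D168D, and gro, the corepressor of terminal genes, at -0.04 ± 0.03 and 0.29 ± 0.06. The ligand gene trk was at -0.35 ± 0.02 and -0.10 ± 0.08, and cnk, a scaffold of Ras signalling, at 0.07 ± 0.16 and 0.30 ± 0.16. These 4 were all lower with D168A. The only 1 of the 9 that was higher with D168A was tsl, also named after its values were seen. It was at 0.28 ± 0.13 with D168A and -0.14 ± 0.02 with D168D. The form means of the 9 measured genes reached at most 0.28 with D168A and 0.30 with D168D. These RNA ratios do not measure signalling, and its part in the ratio of tll was not tested.

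The maternal and early inputs were all measured, and 0 of 8 were called, with medians of 0.0044 (D168A) and 0.08 (D168D). The posterior activator gene cad was at 0.30 ± 0.04 with D168A and 0.52 ± 0.30 with D168D, and osk, which directs germ-plasm assembly, at -0.44 ± 0.21 and 0.05 ± 0.0047. Among the targets of the gap genes, 7 of 9 pair-rule genes were measured and 0 were called. All 7 were above 0 with D168A and 6 with D168D, at medians of 0.23 and 0.30, where 53.2% and 47.0% of all genes were above 0. The D168A values rest on the Cy5 array, with a median of -0.05 and 4 of the 7 genes (odd, prd, slp2 and opa) below 0 on the Cy3 array, and a median of 0.43 on the Cy5 array. With D168D the medians were 0.38 and 0.295 (Cy3 and Cy5). Of these, odd was at 0.35 ± 0.40 with D168A and 0.82 ± 0.28 with D168D, and ftz at 0.37 ± 0.06 and 0.54 ± 0.16. The 12 measured genes of head and tail regions had medians of -0.02 and -0.01 and 0 calls. In that list Dfd, a homeotic gene of the head, was at 0.51 ± 0.42 and 0.16 ± 0.21, and so, an eye and brain homeobox gene, at -0.12 ± 0.12 and -0.20 ± 0.52.

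**Figure D4:**
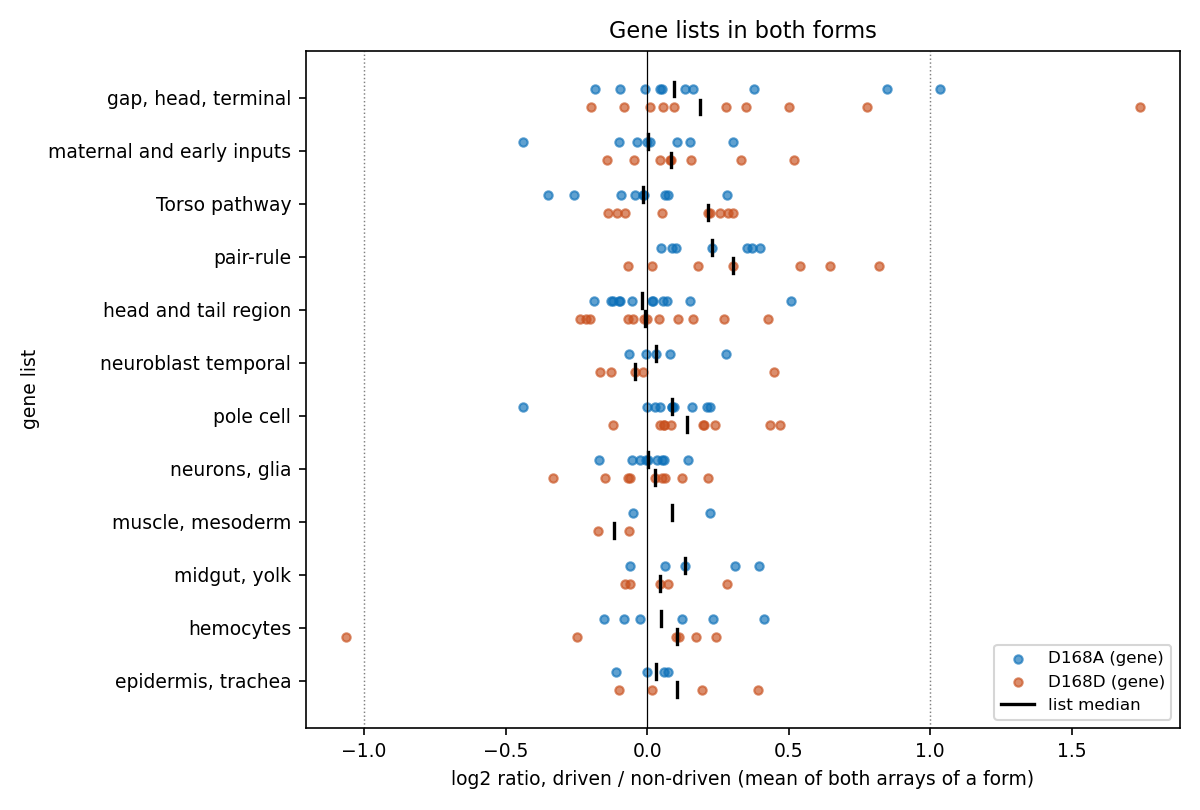
Log2 ratio of driven over non-driven cells for each gene of the lists, as the mean of both arrays of D168A (blue, upper row of a list) and D168D (orange, lower row). Black bars are list medians and dotted lines mark 2-fold; tll with D168D at 1.74 lies farthest to the right, and the highest list median, that of the pair-rule genes with D168D, is 0.30.

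Markers of other cells that the sort could hold, in which several of these 10 genes are used later, were set beside the results. The 5 temporal factors of neuroblasts had medians of 0.03 with D168A and -0.04 with D168D, with cas, a zinc finger factor of late neuroblasts, at 0.28 ± 0.10 and 0.45 ± 0.31, and svp, a nuclear receptor, at -0.0052 ± 0.13 and -0.17 ± 0.18. The 9 measured genes of neurons, neuroblasts and glia had medians of 0.0024 and 0.03 and ranged from -0.17 to 0.15 with D168A and from -0.33 to 0.21 with D168D. In that list pros was at -0.05 ± 0.27 and -0.33 ± 0.20, and insc at 0.15 ± 0.08 and 0.21 ± 0.38. The medians were 0.09 and -0.12 for 2 of 8 muscle and mesoderm genes, 0.13 and 0.05 for 5 of 6 midgut and yolk genes, 0.05 and 0.11 for 6 hemocyte genes, and 0.03 and 0.11 for 4 of 6 genes of epidermis and trachea.

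In those lists the mesoderm gene twi was at -0.05 ± 0.13 with D168A and -0.17 ± 0.0065 with D168D, and bap at 0.22 ± 0.43 and -0.06 ± 0.22. The GATA factor gene srp was at 0.13 ± 0.07 with D168A and 0.28 ± 0.04 with D168D, and GATAe, of the same family, at 0.31 ± 0.01 and 0.05 ± 0.17. The cadherin gene shg was at 0.06 ± 0.28 and 0.39 ± 0.23, and the tracheal and neural factor gene vvl at -0.11 ± 0.10 and -0.10 ± 0.18. Among hemocyte genes Hml was at 0.12 ± 0.42 and 0.24 ± 0.45, and the scavenger receptor gene Sr-CI at 0.41 ± 0.20 with D168A and -1.06 ± 0.26 with D168D. Its D168D arrays were at -0.81 (Cy3) and -1.32 (Cy5), so it was not called in a form, and neither was any other gene of these lists. Between the forms, however, Sr-CI differed by 1.48 ± 0.06 as D168A minus D168D, from 1 probe. That is more than 2-fold in both dye orientations, as for 0.13% of all genes. Pole cell genes had medians of 0.09 and 0.14 over 10 of 14 measured, the first from 0.18 on the Cy3 and -0.02 on the Cy5 array, with wun2, which steers germ cell migration, at 0.21 ± 0.01 and 0.47 ± 0.32, and zpg, a germ-line gap junction gene, at 0.09 ± 0.08 and 0.43 ± 0.09. In these bulk samples more cells with a transcript and more transcript in each cell cannot be told apart. The part that somatic cells in the sort or the mix of embryonic stages play in the ratio of tll was not tested.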

How the data were processed

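Per the labels, 100 ng of total RNA per sample went into linear amplification and dye labelling. Per the submitters' processing notes, the authors made the deposited values with Agilent Feature Extraction 7.1. They are a log10 ratio per feature, with no spot intensities used here. The sources used here state neither background correction nor dye normalization nor centring. The log base was taken as 10 because no value exceeds 2 in size, which on that scale is the 100-fold limit of that software. The deposited log10 ratios were read from the values as driven over non-driven on all 4 arrays, since their direction is not stated. Every zero on the arrays with driven RNA in Cy3 is a negative zero (446 and 583 features), as a turned sign leaves it, and Tao is high on all 4. No sign was changed. Of 22575 features, 17329 had 1 gene symbol, 326 several and 4920 none. By gene ID, 17325 matched the Release 6 plus ISO1 MT gene table and 0 symbols changed. The files name no genome build, so no coordinates are given. Ratios were converted to log2, averaged over probes into 10805 genes and over the 2 arrays of a form. The 2-fold rule gives no p-value. The common comparison used limma 3.58.1 in R 4.3.3 (lmFit and eBayes, two-sided) on the 2 form means, with Benjamini-Hochberg adjustment over all genes. Both steps were also run on simulated data with independent deviations for each form and array. Such data lack the correlations seen between these arrays, so the steps were not tested under them.

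The 10 genes and the 11 other lists were chosen with earlier results of these data known. From each list the text names genes that passed a rule or test and the 2 with the largest absolute mean over both forms, and for tll the 5 nearest genes by distance. The list genes h and nos stand as hry and nanos in the annotation. Alternatives covered the fold threshold, single dye orientations, the treatment of probes and of zeros, centring, and arrays as replicates.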

Additional observations from a re-analysis of the deposited data

Results flagged for a closer look

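The median of the Torso pathway list is described here because it lay below 0 on both arrays of D168A and above 0 on both arrays of D168D, and this difference was not tested. As form means, the medians of other sets lay on opposite sides of 0 too, at 0.03 and -0.04 for the neuroblast temporal factors, 0.09 and -0.12 for the muscle and mesoderm genes and 0.01 and -0.01 for all genes. It was -0.01 and -0.08 on the Cy3 and Cy5 arrays of D168A, and 0.04 and 0.10 on those of D168D. The median difference of D168A minus D168D over its 9 measured genes was -0.227, with 8 of the 9 lower with D168A and 5 of them in both dye orientations. The exception was tsl, with a difference of 0.42 ± 0.16. Over all genes 44.7% were lower with D168A and 17.2% in both orientations, and of the 10 measured pole cell genes 7 were lower and 5 in both. The list holds genes that act upstream of tll and hkb. For comparison, tll had a difference of -0.70 ± 0.18 and hkb of 0.35 ± 0.65. None of the 10 gap, head and terminal genes lay wholly above 0 in one form and wholly below 0 in the other.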

How the results depend on the processing

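The count of the 10 genes that met the 2-fold rule was 0 with D168A, 1 (tll) with D168D and 0 for the difference between the forms. By construction, 1.5-fold gave 2 with D168A (tll and hkb) and 2 with D168D (tll and gt). The mean of both orientations alone gave 1 with D168A (tll). A single dye orientation gave 0 to 2 with D168A, 1 with D168D and 0 for the difference. For the mean alone and for single orientations the share of all genes was not counted, so these counts have no background. Over all genes, tll had the 44th and 155th highest value on the Cy3 and Cy5 arrays of D168A. On those of D168D it had the 7th and 10th highest. At 3-fold, with every probe required to pass, with centred arrays and with the median over probes, the counts were 0, 1 (tll) and 0. The limma count was 0 of the 10 genes in all 7 settings, where the number called over all features ranged from 0 to 15 (6 as reported). Of 40 gene values in each setting, centring and the median over probes changed the sign of 0. Using the Cy3 arrays alone changed 10 signs and the Cy5 arrays alone 8, among hkb, hb, Kr, knrl, oc, ems and btd, and none of tll, gt or kni. The cause was not tested. No test paired over replicates was possible, as each form had 1 replicate, and the forms were compared only within each dye orientation. Signal over background is unknown, so it cannot be said which ratios come from dim spots.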

Other observations

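The 2 probes annotated to both gt and CG12496, which enter no comparison, differed from 2 of the 3 probes of gt alone. The first was at 0.27 and -0.82 on the Cy3 and Cy5 arrays of D168A, and at -0.20 and 0.04 on those of D168D. The second was at -0.0024 (Cy3) and -0.0014 (Cy5) in the D168A pair, and at -0.42 (Cy3) and -0.14 (Cy5) in the D168D pair. Their means were -0.27 and -0.0019 for D168A, then -0.08 and -0.28 for D168D, all below 0, whereas 5 of the 6 probe means of gt alone were above 0. The remaining probe of gt alone was also near 0, at -0.004 with D168A and 0.06 with D168D, and on the D168A arrays it had the signs of the first shared probe, at 0.30 (Cy3) and -0.31 (Cy5). Which transcript these 2 probes read was not tested.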
